A study of Homo sapiens with 6 samples.

Results

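The cytosolic ribosomal protein genes encode the proteins that, with ribosomal RNA, build the large (RPL) and small (RPS) subunits of the ribosome that translates nuclear mRNAs. Members were taken by symbol, as RPL or RPS followed by a number with at most one of A, X or L after it, or as RPLP0, RPLP1, RPLP2 or RPSA, with pseudogenes and the S6 kinases left out. On the array, 56 of the 19775 genes with a symbol of their own met this rule, 35 of the large and 21 of the small subunit. They were read by 117 probe sets, groups of short oligonucleotides summarised to 1 value. A single set read 22 of the genes, and the other 34 had up to 5 sets each. A further 15 genes of the family, among them RPL5 and RPL13A, were only on sets that list several symbols, often with a small nucleolar RNA encoded in an intron, and are not described from those sets. RPLP0, RPSA, RPL26 and RPS27A, which the rule or the list of roles names, had no set with 1 symbol.

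SUM-LM1 cells, a lung-metastatic derivative of the human breast cancer line SUM159, were cultured without attachment to the plate and given recombinant human activin B at 50 ng/ml for 6 h (n = 3), or vehicle, which was 0.1% BSA in PBS, for the same time (n = 3). Both groups were cells of this 1 line, cultured in HuMEC medium with 0.1% BSA, and activin B is a TGF-beta family ligand made of 2 inhibin beta B chains. The titles call the replicates biological. RNA was hybridised to human 3' expression arrays, and values are log2 signals, on which a difference of 1 is a doubling.

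Cells make ribosomal proteins in near-equal amounts, and their mRNAs are among the most abundant in dividing cells. These mRNAs are known for a terminal oligopyrimidine start, a C followed by an unbroken run of C and T (U in the RNA), through which mTOR and the RNA-binding protein LARP1 set how strongly they are translated. MYC and RNA polymerase I act upstream on ribosome production, and free ribosomal proteins such as RPL11 bind MDM2 and so touch p53. An array reads only the amount of mRNA, and not its translation.

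The starts are shown first because the run of pyrimidines is a feature that most member genes with an annotated start share and that the rule did not use. Each line gives 30 bases of the transcribed strand from RefSeq (GRCh38.p14), 10 before and 20 from the annotated start, with the run of C and T that opens with C and covers the first transcribed base in capitals. RPL14 and RPL38 carry the probe sets that passed the test, RPS10, RPL27A and RPLP2 those with the next largest changes, RPL41 has a set at the top of the signal range, and RPS27 is set beside its copy RPS27L and the copy RPL10L.
RPL14: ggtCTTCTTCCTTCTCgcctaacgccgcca
RPL38: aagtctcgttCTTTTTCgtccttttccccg
RPS10: catgCTCCTTCCTTTCCagccccggtaccg
RPL27A: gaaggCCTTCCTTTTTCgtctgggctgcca
RPLP2: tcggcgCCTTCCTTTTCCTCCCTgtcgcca
RPL41: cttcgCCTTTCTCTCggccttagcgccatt
RPS27: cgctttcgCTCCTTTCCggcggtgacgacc
RPS27L: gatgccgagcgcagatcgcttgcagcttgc
RPL10L: gtagttaagagagcgcattttgacttcgag

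The windows lie at chr3:40457329-40457358 for RPL14, chr17:74203668-74203697 for RPL38, chr11:8682782-8682811 for RPL27A, chr11:809957-809986 for RPLP2, chr12:56116623-56116652 for RPL41 and chr1:153990752-153990781 for RPS27, all on the plus strand. On the minus strand lie RPS10 at chr6:34426050-34426079, RPS27L at chr15:63157458-63157487 and RPL10L at chr14:46651762-46651791. RPL38 and RPL27A share their first 10 transcribed bases, ctttttcgtc. The copies RPS27L and RPL10L have no such run of 5 or more letters in this window.

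Of the 56 genes, 48 had an entry among these RefSeq starts, with 55 starts in all. A run of C and T of 5 or more letters that opens with C no more than 10 bases from the start was found at 46 of the 55 (83.6%, exact 95% interval 71.2% to 92.2%), against 33.5% of 35116 starts of all genes. Runs of 8 or more stood at 38 member starts (69.1%), against 9.17% of all starts. On the opposite strand the share with 5 or more was 16.4% at the member starts and 31.5% at all starts, so the excess lay on the transcribed strand. The first transcribed base was C at 67.3% of member starts, against 14.7% of all. These are matches of letters in a window and overlapping longer runs count in both shares. Intervals cover counting error only.

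**Figure D1:**
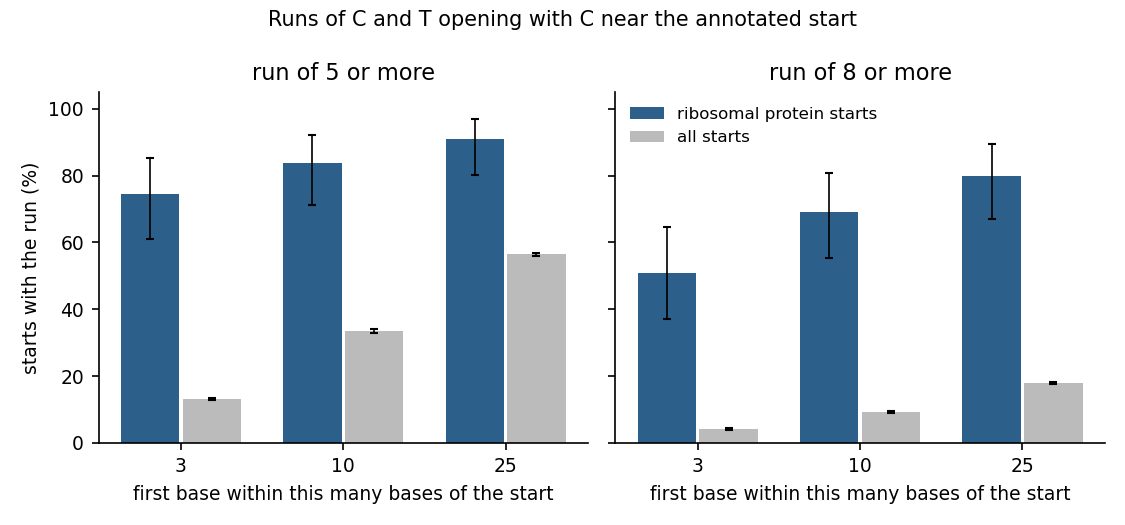
Share of annotated starts (y axis, %) with a run of C and T opening with C, by how near the start its first base lies (x axis, bases), for runs of 5 or more (left) and 8 or more (right), at 55 ribosomal protein starts (blue) and 35116 starts of all genes (grey). Bars of the ribosomal protein starts are higher in every panel; within 10 bases they reach 83.6% against 33.5% and 69.1% against 9.17%. Whiskers are exact 95% binomial intervals.

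The labels and the cell line were checked first. ID3, an inhibitor of basic helix-loop-helix factors, was at 11.36 ± 0.29 in activin B and 8.51 ± 0.26 in vehicle (SD, n = 3 each), and all 4 genes taken as a check of the activin response (ID1, ID2, ID3 and SMAD7) rose. The 5 SUM159 markers lay at mean signals of 9.33 to 13.90, with array medians of 6.69 to 6.70. Leukocyte markers were at 6.27 to 6.85 and luminal ones at 6.28 to 8.02. Endothelial markers reached from 6.09 to 8.525 (ERG). Fibroblast markers reached from 6.31 to 11.54 (COL1A1), into the range of the SUM159 markers. Summed linear signals of the leukocyte markers were 437 to 502 in activin B and 440 to 469 in vehicle. Activin B replicate 3 stood apart on the first principal component (29.5% of the variance), at 21.7 against -10.6 to 5.70 on the other 5 arrays. Over all 54613 probe sets 40 were higher and 26 lower, with a median log2 change of -0.0012.

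Messenger RNAs of the ribosomal proteins were at nearly the same level with and without activin B. Of the 117 probe sets, 2 passed the test as higher in activin B, where 0.0732% of all sets did, and 0 passed as lower, where 0.0476% did (limma with Benjamini-Hochberg adjustment over all sets, adjusted p under 0.05). At an unadjusted p under 0.05 there were 9 (7.69%, against 5.28% of all sets), 7 higher (2.81% of all sets) and 2 lower (2.47%). The median log2 change was -0.0008 over the members, with 56 changes above and 61 below 0 and the middle 50% between -0.03 and 0.02. When each gene was represented by its brightest set, 0 of 56 genes passed (0.192% of all genes did), and 2 had an unadjusted p under 0.05 (3.57%, against 5.89% of all genes). In bulk RNA, fewer cells and less RNA per cell cannot be told apart, and arrays brought to 1 distribution show only changes relative to other transcripts.

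The median changes of both subunits were small. In the large subunit 2 of 65 sets passed, both higher (0.0732% of all sets were called higher), and the median change was 0.0007. At an unadjusted p under 0.05 it had 6 sets higher and 1 lower (10.8%, against 5.28% of all sets). In the small subunit 0 of 52 passed, with a median of -0.0034. It had 1 set on each side at an unadjusted p under 0.05 (3.85%). Groups did not overlap for 18 of the 117 sets (15.4%), 9 higher and 9 lower. Of all sets on the array 9.79% were separated in this way, 4.91% higher and 4.89% lower. The large subunit had 12 of the separated member sets (18.5% of its sets) and the small subunit 6 (11.5%).

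**Figure D2:**
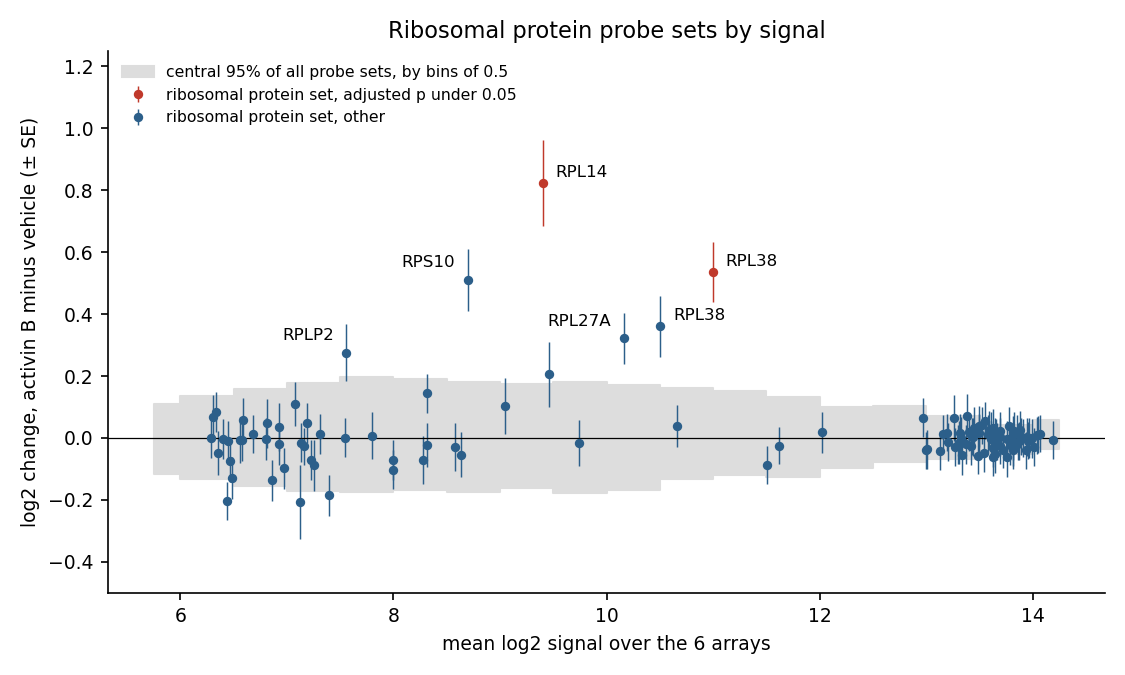
Log2 change (activin B minus vehicle, ± SE, y axis) of the 117 ribosomal protein probe sets against their mean log2 signal over the 6 arrays (x axis). The grey band holds the central 95% of all sets in bins of 0.5. Sets at 12 or more lie between -0.06 and 0.07, and the 2 sets that passed the test (red, RPL14 and RPL38) have mean signals of 9.40 and 10.997.

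Probe sets of high signal carried most of the family and gave the tightest values. A mean log2 signal of 12 or more was found for 68 sets of 49 genes. Their changes lay between -0.06 for RPS6 and 0.07 for RPL7, 0 passed the test, and 0 reached an unadjusted p under 0.05. All their 95% intervals lay between -0.20 and 0.22, or 0.872-fold and 1.17-fold. Of these sets 5 did not overlap between groups (7.35%), against 9.59% of all 605 sets this bright: RPS3 and RPL14 were the 2 higher, by 0.04 and 0.06, and sets of RPL19, RPL7 (another of its sets) and RPS23 were lower. At the median SE of the bright sets, 0.061, a log2 change of 0.34 (1.26-fold) would have been needed to match the smallest test statistic that passed.

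This range lay close to the top of the scale. The highest value was 14.22 on every array, and between 27 and 31 of the 100 highest sets of an array were members. The set of RPL41, which encodes the shortest ribosomal protein, held that highest value on activin B replicate 1 and on vehicle replicates 1 and 2. Of the 605 sets of 12 or more, 0 passed the test, and the 537 that were not members ranged from -0.38 to 0.21, with 1 higher or lower by more than 0.25. Whether the top of the scale narrowed the changes was not tested.

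Several genes with a known role beyond the ribosome, or a disease link, are described next by their brightest set. RPL11, which binds MDM2, was at 13.24, 13.27 and 13.27 in activin B and at 13.32, 13.29 and 13.26 in vehicle. The difference was -0.03 ± 0.06 (SE) and the groups overlapped. RPS6, the substrate of the S6 kinases, was at 13.57, 13.59 and 13.66 in activin B and at 13.61, 13.64 and 13.67 in vehicle (-0.03 ± 0.06). RPS3, which also takes part in DNA repair, was at 13.54, 13.53 and 13.57 in activin B, against 13.51, 13.51 and 13.50 in vehicle. Its groups were apart, but by 0.04 ± 0.06, which did not pass (adjusted p = 0.999).

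The genes of Diamond-Blackfan anemia and of the 5q- syndrome, in which 1 lost copy of a ribosomal protein gene impairs red cell formation, were represented by RPS19, RPS14 and RPL35A. RPS19 was at 13.96 ± 0.04 in activin B and 13.96 ± 0.07 in vehicle, and RPS14 at 13.94 ± 0.04 in activin B and 13.94 ± 0.02 in vehicle (SD, n = 3 each). The brightest RPL35A set was at 13.46 ± 0.04 in activin B and 13.43 ± 0.09 in vehicle. RPLP1, of the acidic stalk that contacts elongation factors, was at 14.07 ± 0.01 in activin B and 14.06 ± 0.01 in vehicle. RPL22, which also acts in T cell development in mice, was at 13.36 ± 0.04 in activin B and 13.38 ± 0.05 in vehicle on its brightest set. Each of these differences was smaller than its SE. The model draws each SE partly from the variance of all sets, and it was at least 0.059 on every set. A difference below that lies within its SE however little the arrays of a group vary.

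Copies of ribosomal protein genes were compared only with themselves, since the signals of different probe sets are not on 1 scale. RPL3L, a copy known from heart and skeletal muscle, was at 6.51, 6.41 and 6.36 in activin B and at 6.48, 6.57 and 6.46 in vehicle, below the array median. RPL39L and RPL10L, both known from testis, changed by -0.0003 and 0.05 at mean signals of 6.29 and 7.19. RPL39L also lay below the array median. The change of RPL3L was -0.075 ± 0.066 (SE), while RPL39L and RPL10L changed by less than their SE. The groups of all 3 overlapped. RPS27L, known as a p53 target, was at 11.58, 11.60 and 11.62 in activin B and at 11.62, 11.62 and 11.65 in vehicle, a difference of -0.02 ± 0.06. The parents were flat: RPL3 changed by 0.02, RPL39 by 0.02 and RPS27 by 0.04, with adjusted p = 0.999 for each.

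The exceptions were in a middle range of signal, whose upper limit was chosen after seeing the values. Of 21 sets with a mean of 7.5 to 12, the 2 called ones lay here, where 0.39% of all 14625 sets passed. Of the 21, 7 were higher at an unadjusted p under 0.05 (33.3%, against 3.98% of all sets in this range), and 10 did not overlap between groups (47.6%, against 11.4%), 7 higher and 3 lower. Below 7.5, 0 of 28 sets passed (0.0229% of all sets this dim did), 3 did not overlap between groups, all lower (10.7%, against 9.22%), and 2 were lower at an unadjusted p under 0.05 (7.14%, against 2.18%). The 7 higher sets belonged to 6 genes, RPL14, RPL38, RPS10, RPL27A, RPLP2 and RPL35A. All 7 had groups that did not overlap, but they were picked by a small p on the same arrays. Among their activin B values replicate 2 was the highest in 6 and replicate 1 the lowest in 6 of the 7.

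RPL14, a protein of the large subunit, rose on 1 of its 3 sets. Set 219138_at read 9.76, 9.93 and 9.75 in activin B and 9.45, 8.81 and 8.70 in vehicle. All activin B arrays were above all vehicle arrays, and vehicle replicate 1 stood nearer to the activin B values than to the other vehicle ones. The log2 change was 0.82 ± 0.14 (SE), a 1.77-fold rise with a 95% interval of 1.44 to 2.17 (limma, adjusted p = 0.0285). The call was lost without any 1 array other than vehicle replicate 1, with adjusted p up to 0.297 without vehicle replicate 2, and without vehicle replicate 1 it was 2.85e-05. It was also lost when only sets above the median signal (0.0627) or of 7.5 or more (0.0915) were tested.

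The other RPL14 sets did not show this change. Set 213588_x_at read 13.58, 13.56 and 13.59 in activin B and 13.51, 13.51 and 13.56 in vehicle, a change of 0.06 ± 0.06. Set 200074_s_at read 13.20, 13.20 and 13.22 in activin B and 13.19, 13.20 and 13.18 in vehicle, a change of 0.02 ± 0.06. Both have upper 95% limits, 0.18 and 0.14, far below the change of the dimmer set. The annotation used here does not say which stretch of the transcript a set reads.

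RPL38, which in mouse embryos is needed for the translation of a subset of Hox mRNAs, had a similar split. Set 202028_s_at read 11.004, 11.42 and 11.37 in activin B and 10.85, 10.64 and 10.69 in vehicle. The groups did not overlap, and activin B replicate 1 was the lowest of its group. It rose by 0.54 ± 0.10, or 1.45-fold with a 95% interval of 1.26 to 1.67 (limma, adjusted p = 0.0477). Without activin B replicate 1 the adjusted p was 0.00178, and without any other 1 array the call was lost, with values up to 0.413 without vehicle replicate 2. The same 2 filters on signal also ended it, at 0.0773 and 0.0954.

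The second RPL38 set, 221943_x_at, pointed the same way without passing. It read 10.51, 10.93 and 10.62 in activin B and 10.47, 10.33 and 10.17 in vehicle, a change of 0.36 ± 0.10 (adjusted p = 0.473). The brightest, 202029_x_at, read 13.45, 13.42 and 13.42 in activin B and 13.42, 13.44 and 13.42 in vehicle, a change of 0.003 with a 95% interval of -0.12 to 0.13.

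RPS10, a small-subunit protein whose gene is also mutated in Diamond-Blackfan anemia, had 3 bright sets and 1 in the middle range. This set, 214001_x_at, read 8.85, 9.09 and 8.91 in activin B and 8.59, 8.57 and 8.17 in vehicle. The groups were apart by 0.51 ± 0.10, and the set did not pass (limma, adjusted p = 0.0934). It did pass when the prior of the test was let vary with signal (0.0308) or when the replicate number was added as a block (0.0154). Over all alternatives the adjusted p was 0.0154 to 0.495. Its 3 bright sets changed by -0.01 to 0.03, each within its SE.

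**Figure D3:**
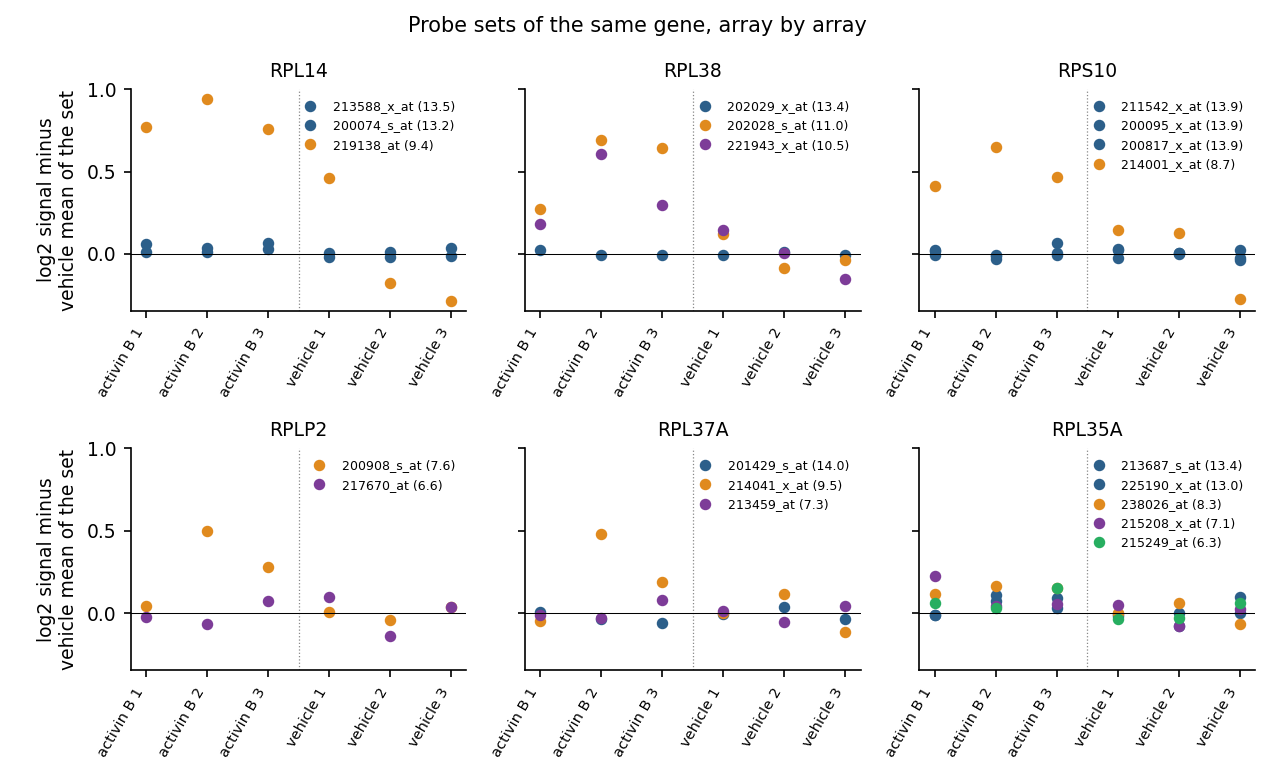
Log2 signal minus the vehicle mean of the same set (y axis) on each array (x axis, activin B replicates left of vehicle replicates) for all sets of 6 genes. Blue points are sets of mean 12 or more, other colours the dimmer ones, with the mean signal after each set's name. Bright sets stay close to 0, while 219138_at of RPL14 and 202028_s_at of RPL38 are higher on all activin B arrays.

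RPL27A and RPLP2 had no bright set to compare with. RPL27A, of the large subunit, was read by 1 set at 10.13, 10.42 and 10.42 in activin B and 10.003, 9.92 and 10.08 in vehicle (0.32 ± 0.08, adjusted p = 0.348). RPLP2, the partner of RPLP1 in the stalk, was at 7.46, 7.92 and 7.70 in activin B and at 7.43, 7.38 and 7.46 in vehicle on set 200908_s_at (0.28 ± 0.09, adjusted p = 0.730). Both had groups that did not overlap, for RPLP2 by the narrow gap between activin B replicate 1 and vehicle replicate 3. Its other set, 217670_at, changed by -0.01 ± 0.07 at a mean signal of 6.56.

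RPL37A and RPL35A showed smaller differences of the same kind. Set 214041_x_at of RPL37A read 9.30, 9.83 and 9.54 in activin B and 9.35, 9.47 and 9.24 in vehicle. The groups overlapped, since activin B replicate 1 lay within the vehicle range (0.21 ± 0.10, adjusted p = 0.959). The RPL37A set at 14.01 changed by -0.03. Set 238026_at of RPL35A read 8.36, 8.40 and 8.39 in activin B and 8.24, 8.30 and 8.18 in vehicle (0.14 ± 0.06, adjusted p = 0.934).

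Lower values were smaller, and 0 passed. The smallest p was that of RPL36 set 231658_x_at, at 6.30, 6.38 and 6.34 in activin B and 6.56, 6.56 and 6.51 in vehicle, a change of -0.20 ± 0.06 (adjusted p = 0.600). RPS19 set 242451_x_at was at 7.21, 7.36 and 7.35 in activin B and 7.45, 7.53 and 7.49 in vehicle (-0.19 ± 0.07, adjusted p = 0.799). In both the groups did not overlap, and both genes also had bright sets that were flat. The lowest change of all, -0.21 ± 0.12 for RPL18 set 222297_x_at, came from activin B replicate 3 alone, which was at 6.64 where the other 5 arrays were at 7.14 to 7.28. Sets of RPS15A (229882_at, -0.14), RPLP1 (244191_at, -0.13), RPS23 (227722_at, -0.10), RPL37 (224766_at, -0.10) and RPL22 (214042_s_at, -0.09) had adjusted p of 0.953 to 0.995.

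Most sets of the same gene differed little in their change, and a few differed widely. In 34 genes with several sets, 61 dimmer sets could be paired with the brightest of their gene, and 27 pairs (44.3%) had changes of the same sign. Pearson's r over the pairs was 0.14, given as a description, since pairs of a gene share its brightest set and all share the 6 arrays. The median absolute difference was 0.044 on the log2 scale, below the median SE of the member sets, 0.062. With changes mostly this small, the share of equal signs cannot tell whether sets of a gene agree. In 19 pairs both sets were of 12 or more, and the largest difference was 0.10. In 42 pairs the dimmer set was under 12, and 7 differed by more than 0.2, 5 with the dimmer set higher and 2 with it lower. When dimmer sets named as shared with other transcripts (_s_at and _x_at) were left out, 30 pairs remained and 2 differed by more than 0.2. The brightest set of a pair was not filtered in this way, and in both of these pairs, of RPL14 and RPLP2, it was of a shared kind.

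**Figure D4:**
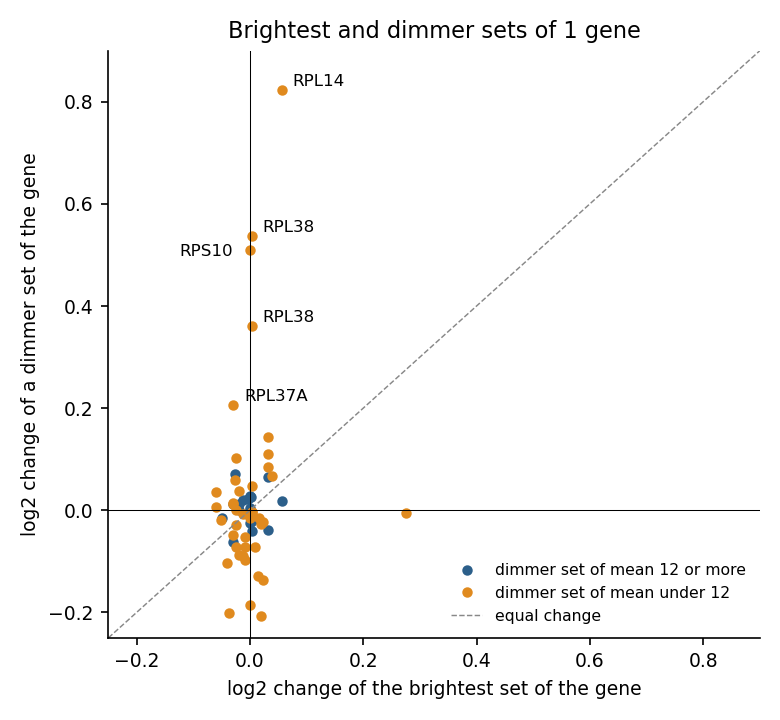
Log2 change (activin B minus vehicle) of each dimmer set (y axis) against that of the brightest set of the same gene (x axis) for 61 pairs in 34 genes, with the dashed line where both are equal. The brightest sets of the genes hold a narrow range around 0 apart from RPLP2 on the right. Its brightest set, of a mean signal of only 7.56, changed by 0.28. Above 0.2 lie 5 dimmer sets of RPL14, RPL38, RPS10 and RPL37A.

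Other measures of the arrays are given beside these sets. The thr spike-in, a bacterial RNA that array kits add during labeling, was at 7.75, 7.25 and 7.19 in activin B and at 6.94, 6.84 and 7.15 in vehicle, 0.42 higher, and its groups did not overlap. Its highest activin B value was on replicate 1, the array that was lowest of its group in 6 of the 7 higher sets. The other spike-ins differed by -0.08 to 0.08. Among these, bioD and cre also had groups that did not overlap, higher in activin B by 0.08 and 0.05. The groups of dap, lys, phe, bioB and bioC overlapped. The 3' minus 5' signal, a sign of RNA length, was -0.006 ± 0.029 in activin B and -0.042 ± 0.042 in vehicle for GAPDH, and 0.090 ± 0.013 in activin B and 0.113 ± 0.013 in vehicle for ACTB (SD, n = 3 each). Of the 7 higher sets, 2 are _at, 3 are _s_at and 2 are _x_at sets, and the last 2 kinds, like sequence shared with the many processed pseudogenes of this family, make their source uncertain. The part of these in the result was not tested.

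Array by array the family sat at 1 level in the normalized values. The arrays had been brought to 1 distribution. The family, with its sets of several symbols, held 48 to 53 of the 100 highest sets of each array. A shift shared by the family may thus have been reduced before these medians were taken, which was not tested. The median deviation of the 117 sets from their own means was -0.0011 to 0.0002 on the activin B arrays and -0.0011 to 0.0071 on the vehicle arrays. The bright sets spread from -0.16 to 0.11 around their vehicle means on the activin B arrays and from -0.17 to 0.10 on the vehicle arrays. Dimmer sets spread from -0.59 to 0.94 on the activin B arrays and from -0.29 to 0.46 on the vehicle arrays.

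**Figure D5:**
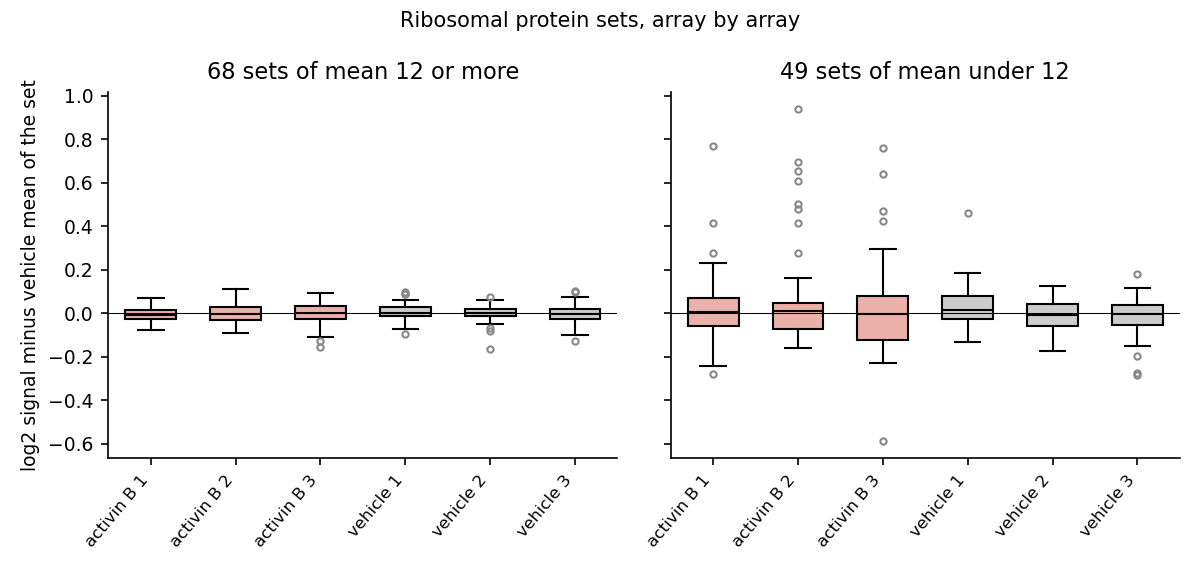
Log2 signal minus the vehicle mean of the same set (y axis) on each array (x axis, activin B in red left of vehicle in grey), for 68 sets of mean 12 or more (left) and 49 dimmer ones (right). Boxes span the middle 50% with the median as a line, whiskers reach 1.5 box lengths and circles are sets beyond them. Medians are near 0 on all 6 arrays, and the highest circles in the right panel are on the activin B arrays, up to 0.94, against at most 0.46 on the vehicle arrays.

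Other genes of ribosome production and its control gave 0 calls. Of all genes only 0.192% passed, so lists of 5 to 75 genes, here and below, would mostly give 0 at that share. Of 75 mitochondrial ribosomal protein genes, which serve the separate ribosome of that organelle, 0 passed, with a median of -0.02. The smallest p was that of MRPS6, at 11.49 ± 0.03 in activin B and 11.69 ± 0.05 in vehicle (adjusted p = 0.650). Of 32 measured assembly factors 0 passed (median 0.002), with NPM1, NCL and FBL, abundant nucleolar proteins, at -0.03, -0.06 and -0.06. Of 14 other mRNAs of the pyrimidine-start class 0 passed (median 0.004), with EEF1A1 at 0.02, EEF2 at -0.03 and TPT1 at 0.09. Of 5 relatives of the family outside the rule, 0 passed, with RPL26L1 at 0.13 and FAU at -0.03.

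Of 15 genes of RNA polymerase I transcription 0 passed. The unadjusted p was under 0.05 for 2 of them, where it was so for 5.89% of all genes, POLR1F, at 9.43 ± 0.05 in activin B and 9.20 ± 0.04 in vehicle (adjusted p = 0.439), and POLR1G, at 8.89 ± 0.06 in activin B and 8.69 ± 0.10 in vehicle (adjusted p = 0.801). Of 15 genes of mTOR and its control of pyrimidine starts 0 passed (median -0.02), with LARP1 at 0.07. MYC was at 10.87 ± 0.02 in activin B and 10.96 ± 0.16 in vehicle, and 0 of 9 genes of its network passed. The smallest p among these 9 was that of MNT, at 8.32 ± 0.16 in activin B and 8.14 ± 0.13 in vehicle (limma, adjusted p = 0.952). Of 10 p53 targets and regulators 0 passed and 4 had an unadjusted p under 0.05 (5.89% of all genes did): CDKN1A, a cell cycle inhibitor, and TP53INP1 were at 0.23 and 0.16, and SESN1 and FAS at -0.30 and -0.19, all with adjusted p of 0.359 or more.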

How the data were processed

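Per the study's methods section, robust multiarray averaging in Chipster was run by the authors on the array files, and the deposited values are log2 signals per probe set. This step brings all arrays to 1 distribution, so a change shared by most transcripts is not seen. Names of probe sets come from the platform annotation, and 62 control sets were left out. All 54613 others were compared with limma 3.58.1 in R 4.3.3 (moderated by empirical Bayes, 2 groups, 4 residual and 10.8 prior degrees of freedom) with Benjamini-Hochberg adjustment over all of them, and called at an adjusted p under 0.05. The methods name a test of this kind, and the steps were tested on simulated data. Errors are SEs of this model unless called SD. With 3 arrays a group the precision is limited, and p-values reflect only how these samples vary. The limits of 12 and 7.5 for bright and dim sets have no outside standard, and that of 12 was chosen after seeing the values. The members and lists were chosen with earlier results of these data known. Named were the 8 sets with the smallest p in each direction, genes with a role fixed by name, copies with their parents, the 5 genes whose sets differed most, called sets and up to 3 genes with the smallest p in each list; a gene named beside these was picked with its values known. Columns of other samples or of the authors' own comparisons were not used. Starts were taken from RefSeq. Alternatives were the replicate block, filters on dim sets, other normalizations and priors, array weights and leaving out each array. Figures were drawn with matplotlib 3.10.9.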

Additional observations from a re-analysis of the deposited data

How the results depend on the processing

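The number of ribosomal protein sets called, 2, both higher, was 0 when only sets above the median signal or of 7.5 or more were tested, and 0 to 2 when 1 array was left out (0 without activin B replicate 2 or 3 or vehicle replicate 2 or 3, and 1 without vehicle replicate 1). Under both filters RPL14 had adjusted p of 0.0627 and 0.0915 and RPL38 0.0773 and 0.0954; the cause was not tested. The number of genes called, 0, all directions, was 1 (higher) with the dimmest set of each gene, and 0 to 1 with 1 array left out, the 1 being RPL27A without activin B replicate 1 (adjusted p = 0.0470). The median change of -0.0008 was 0.0032 with median centring, -0.0038 with array weights, -0.0066 without _s_at and _x_at sets, 0.0156 as a mean and -0.0067 to 0.0022 with 1 array left out, a change of sign at a size far below any SE. Sets whose groups did not overlap, 18, numbered 24 to 34 with 1 array left out (11 to 15 higher, 12 to 19 lower), which follows from fewer arrays to separate. The numbers were not taken as pairs, since the titles do not call them so. Same-numbered arrays of the 2 groups correlated at 0.16, 0.04 and 0.19 in their deviations, and the others at -0.17 to 0.02. Each array thus correlated best with its own number, and whether the arrays were paired cannot be told. With the replicate number as a block, 3 member sets were called, RPS10 set 214001_x_at being added (adjusted p = 0.0154, and 0.0308 with a trend prior; 0.0154 to 0.495 over its alternatives), and calls over all sets went to 53 higher and 44 lower, against 40 and 26. Of the 599 alternatives for 41 named sets, 582 kept their side of the threshold, 14 lost the call and 3 gained it. The sign changed in 36, on 12 sets that were not called and changed by at most 0.03 in size; 0 of the called ones changed sign. With the limit for bright sets at 11 or 13, also chosen after seeing the data, 0 bright sets passed, and the largest change in size was 0.089 or 0.071. Signal limits what can be said of sets under 7.5, near the median of all sets.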
